A study of Mus musculus with 18 samples.

Results

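Glutathione S-transferases of the alpha class (Gsta1, Gsta2, Gsta3 and Gsta4) and of the pi class (Gstp1 and Gstp2) were followed in the livers of 3 mouse lines. The members were 6 genes chosen with earlier results of these data known. Their probes were taken as every non-control probe of the array whose transcript accession maps to one of these symbols. This gave 7 of the 41174 probes on the array and 5 of the 6 genes. Gsta1, Gsta2 and Gsta4 had 1 probe each, Gsta3 and Gstp1 had 2 each, and no probe was assigned to Gstp2. All 7 probes were well above background and below saturation on all 18 arrays, so none of the members measured passed the filter through one group alone. The probe sequences were not used here. Signal from close paralogs on one probe therefore cannot be told apart, which concerns Gsta1 with Gsta2 and Gstp1 with Gstp2.

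The 18 samples were whole livers of female mice aged 6 weeks, 3 in each of 6 groups, hybridised in a single colour (Cy3) to 1 array each. Nrf1 Control mice carried Nrf1 dN/+ and Nrf1 CKO mice Nrf1 dN/- with Alb-Cre, a Cre recombinase under the albumin promoter that acts in hepatocytes, both on a mixed strain. Nrf2 Control mice were Nrf2 +/+ and Nrf2 KO mice Nrf2 -/-, both C57BL/6. Keap1 Control mice were Keap1 Kd/+ and Keap1 KD mice Keap1 Kd/-, both on a mixed strain. Thus Nrf1 Control and Keap1 Control mice carried an altered allele themselves. The labels do not say whether the 3 samples of a group came from separate animals, so that the p-values rest on a spread between arrays that may be technical only.

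Glutathione S-transferases are cytosolic enzymes that join glutathione to electrophilic compounds and so prepare drugs, carcinogens and products of lipid oxidation for export. NRF2 (gene Nfe2l2) and NRF1 (gene Nfe2l1) are related transcription factors that bind the antioxidant response element, a DNA motif first worked out in rodent alpha-class promoters, and KEAP1 delivers NRF2 for degradation. In mouse liver the pi class is known for its higher level in males, and all mice here were female. The design asks how the transcripts respond when hepatocytes lose NRF1, when all cells lose NRF2 and when KEAP1 is lowered.

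The promoters of the 2 closest pairs and of Gsta3 are shown because the factors under study act through short sequence motifs. RefSeq windows (build GRCm38.p6) were at hand for 5 of the 6 members, all but Gsta4. The 250 bases before the start site are given on the gene's own strand, with matches to TGANTCA, the AP-1 motif, or to TGANNNNGC, a loose form of the antioxidant response element, in capitals on either strand.
Gsta1, chr9:78230419-78230668, plus strand: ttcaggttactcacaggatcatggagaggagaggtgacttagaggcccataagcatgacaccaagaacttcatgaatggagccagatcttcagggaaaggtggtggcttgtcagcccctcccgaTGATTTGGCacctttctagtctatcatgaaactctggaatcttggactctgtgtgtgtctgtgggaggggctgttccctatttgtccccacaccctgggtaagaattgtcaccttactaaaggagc
Gsta2, chr9:78347146-78347395, minus strand: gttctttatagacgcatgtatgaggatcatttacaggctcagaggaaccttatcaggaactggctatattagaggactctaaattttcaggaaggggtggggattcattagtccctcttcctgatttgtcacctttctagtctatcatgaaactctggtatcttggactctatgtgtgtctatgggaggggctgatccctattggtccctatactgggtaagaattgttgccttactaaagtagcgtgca
Gsta3, chr1:21240335-21240584, plus strand: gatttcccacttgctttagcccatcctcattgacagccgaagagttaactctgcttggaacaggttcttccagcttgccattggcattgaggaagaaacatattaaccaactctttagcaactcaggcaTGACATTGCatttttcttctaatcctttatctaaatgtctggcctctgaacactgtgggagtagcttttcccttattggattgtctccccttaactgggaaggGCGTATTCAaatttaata
Gstp1, chr19:4037913-4038162, minus strand: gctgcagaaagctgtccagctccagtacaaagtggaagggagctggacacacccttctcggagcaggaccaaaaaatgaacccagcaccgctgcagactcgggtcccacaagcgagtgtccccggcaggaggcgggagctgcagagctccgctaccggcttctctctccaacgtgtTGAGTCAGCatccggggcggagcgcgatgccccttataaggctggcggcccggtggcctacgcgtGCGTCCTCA
Gstp2, chr19:4042222-4042471, minus strand: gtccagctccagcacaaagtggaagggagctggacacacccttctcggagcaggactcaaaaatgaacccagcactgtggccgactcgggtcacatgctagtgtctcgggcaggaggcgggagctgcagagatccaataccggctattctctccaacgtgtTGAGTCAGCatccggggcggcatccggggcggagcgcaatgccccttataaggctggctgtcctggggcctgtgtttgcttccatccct

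The windows of Gstp1 and Gstp2 were identical at 78.1% of their aligned positions, and those of Gsta1 and Gsta2 at 70.5%. Both pi-class promoters held TGAGTCAGC on the plus strand of the gene, from position -74 to -66 in Gstp1 and from -89 to -81 in Gstp2, counted from the start site. These 9 letters join the AP-1 motif TGANTCA to the end of the antioxidant response element and were present in 0.414% of all 32851 windows, against 7.81% for TGANTCA. The stricter core TGACNNNGC, found in 12.4% of all windows, matched among the members in Gsta3 alone, at -121 to -113 (TGACATTGC). The loose form TGANNNNGC, found in 41.3% of all windows, matched once in Gsta1, at -126 to -118, and not in Gsta2. It also matched in Gsta3 (-121 to -113 and, on the minus strand, -18 to -10) and in Gstp2 (-89 to -81). In Gstp1 it matched at -74 to -66, at -9 to -1 on the minus strand and at 29 to 37, the last beyond the printed bases. Windows were searched on both strands over 300 bases, the overlap of the motifs is as spelled out, and TGANNNNGC and TGAGTCAGC were added after seeing the sequences. A match is a description of letters and no measure of binding, and the antioxidant response element described for mouse Gsta1 lies further upstream than the window.

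The targeted genes followed their labels. The level used throughout is log2 of the processed signal after setting each array's 75th percentile to 0, and each test compares the groups for 1 probe or gene; no level is read as higher or lower expression than that of another probe. Nfe2l1 stood at 3.72 ± 0.18 (SD, n = 3) in Nrf1 Control and was not well above background on any Nrf1 CKO array. Nfe2l2 stood at 3.32 ± 0.20 in Nrf2 Control and was well above background on 1 of 3 Nrf2 KO arrays. Keap1 fell from 4.19 ± 0.80 in Keap1 Control to 1.80 ± 0.06 in Keap1 KD (log2 fold change -2.39, SE 0.31, limma adjusted p = 0.00124; adjusted p = 0.0774 with slide as a block and 0.0572 with the 6 arrays of the line alone). Whether these probes lie in the deleted parts was not checked. Per array, 21668 to 28213 spots passed as well above background, replicate arrays correlated at 0.973 to 0.991 across genes, and 3 arrays in a group limit the precision of every value. The arrays lay on 7 slides scanned on 4 dates. No slide or date held both Nrf2 groups, so that within this line slide or date and genotype cannot be told apart. With slide or date as a block, the Nrf2 KO effect is reached only through Keap1 arrays that shared slides or dates with it. Of these, Keap1 Control 1 alone shared the slide and date of the Nrf2 Control arrays. Slide 2 held both Nrf1 groups (3 CKO arrays and 1 control) and slide 7 both Keap1 groups (1 array of each).

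**Figure D1:**
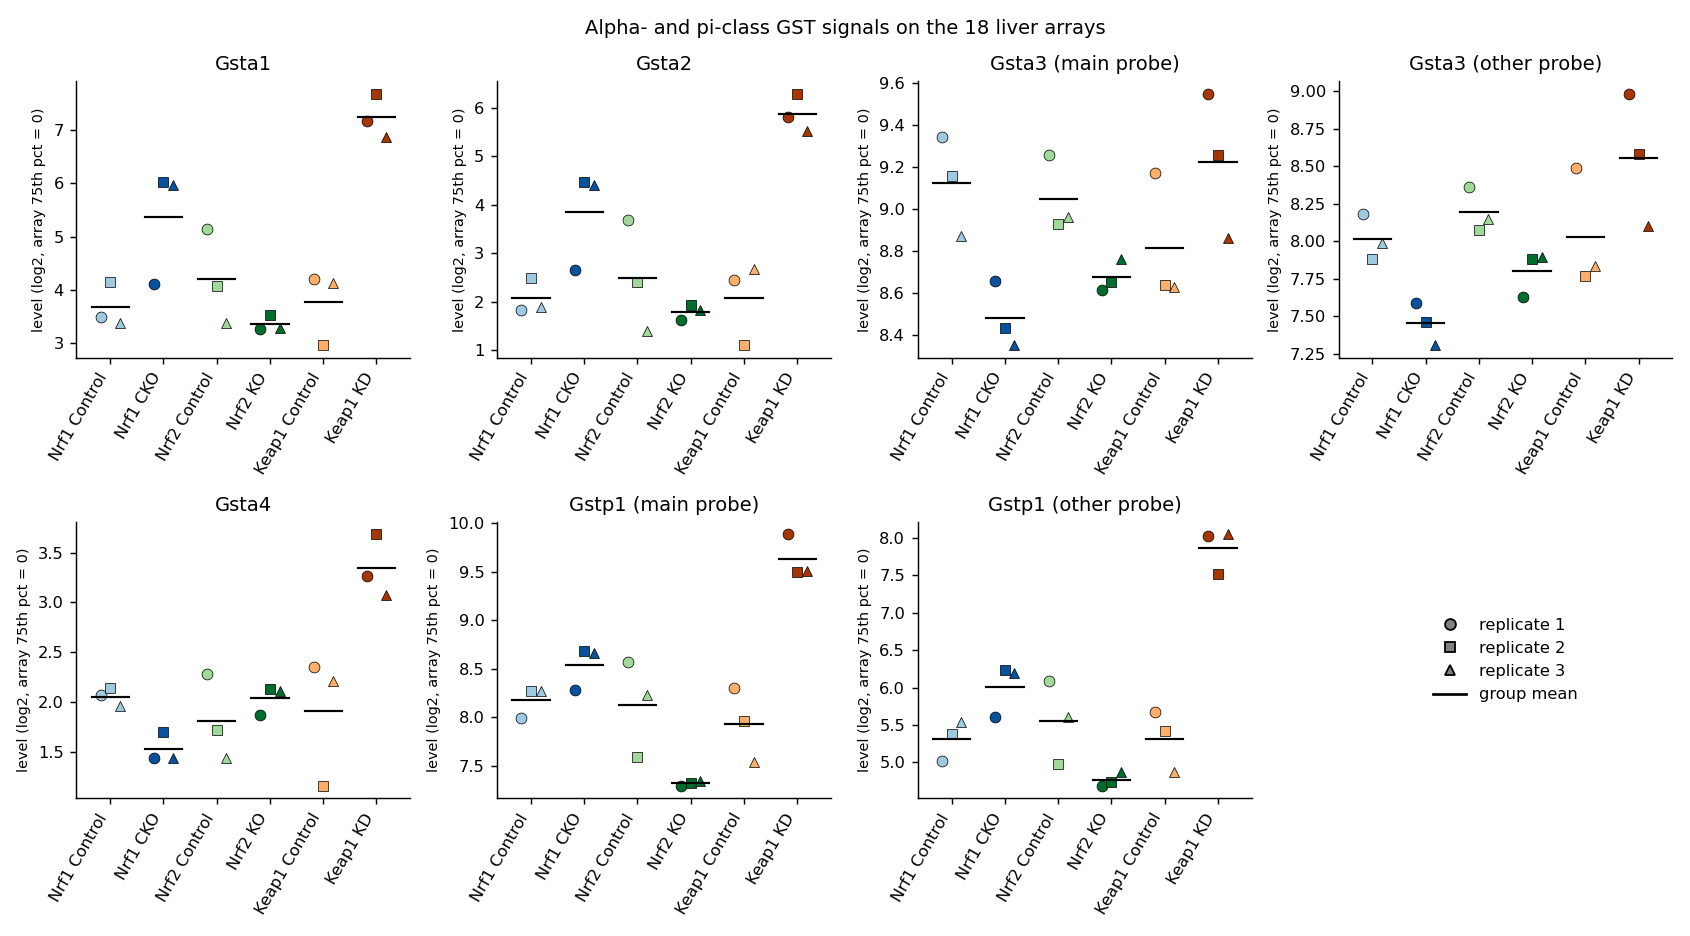
Level of each of the 7 probes (log2 processed signal, the array's 75th percentile set to 0) on the 18 arrays, by group; symbols mark the replicate and lines the group mean. Gsta1, Gsta2, Gsta4 and both Gstp1 probes lie higher on all 3 Keap1 KD arrays than on any other array, while the Gsta3 groups lie close together.

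In Keap1 KD livers 4 of the 5 measured members rose and none fell (limma, adjusted p under 0.05; 4 higher and 0 lower also at an unadjusted p under 0.05). Over all 17721 genes tested, 5.52% were called in this comparison, 0.948% as higher and 4.58% as lower. Gsta1 rose 11.2-fold, Gsta2 14.0-fold, Gstp1 3.25-fold and Gsta4 2.70-fold, and Gsta3 did not pass the test. The median log2 fold change of the 5 members was 1.70, beside 0.00092 over all genes tested.

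Gsta1 and Gsta2 encode the inducible alpha-class subunits of mouse liver, which conjugate electrophiles and reduce lipid hydroperoxides. Gsta1 stood at 4.20, 2.96 and 4.13 on Keap1 Control arrays 1 to 3 and at 7.18, 7.69 and 6.87 on the KD arrays. Every KD array lay above every control array, with a gap wider than the spread within either group. The difference was 3.49 on the log2 scale, or 11.2-fold (SE 0.51, 95% interval 2.39 to 4.58, limma adjusted p = 0.00246). Gsta2 stood at 2.44, 1.10 and 2.67 on the control arrays and at 5.82, 6.30 and 5.53 on the KD arrays. Its difference was 3.81, or 14.0-fold (SE 0.56, 95% interval 2.619 to 5.001, limma adjusted p = 0.0024). The 2 genes moved by nearly the same amount on each array, and 1 transcript read by both probes cannot be told apart from 2 transcripts.

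Gsta4 encodes the alpha-class enzyme that is most active towards 4-hydroxynonenal, an aldehyde from oxidised lipids. It stood at 2.35, 1.16 and 2.21 on the Keap1 Control arrays and at 3.27, 3.68 and 3.07 on the KD arrays, with no overlap. The rise was 1.43 on the log2 scale, or 2.70-fold (SE 0.28, 95% interval 0.84 to 2.03, limma adjusted p = 0.00848). Gsta3 encodes the constitutive alpha-class subunit of mouse liver, known for conjugating the epoxide of aflatoxin. Its brighter probe stood at 9.17, 8.64 and 8.63 on the control arrays and at 9.55, 9.26 and 8.86 on the KD arrays, and the groups overlapped. The difference of 0.41 (SE 0.20, 95% interval -0.02 to 0.83, limma adjusted p = 0.324) did not pass the test. The other Gsta3 probe gave 0.52 (SE 0.22, limma adjusted p = 0.254).

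Gstp1 encodes the pi-class enzyme, which conjugates small electrophiles and also binds the kinase JNK. Its brighter probe stood at 8.30, 7.96 and 7.54 on the Keap1 Control arrays and at 9.89, 9.50 and 9.51 on the KD arrays. The groups did not overlap, and the KD arrays were the highest of all 18. The rise was 1.70 on the log2 scale, or 3.25-fold (SE 0.24, 95% interval 1.19 to 2.20, limma adjusted p = 0.00187). The other Gstp1 probe stood at 5.67, 5.41 and 4.87 in control and at 8.03, 7.52 and 8.05 in KD livers, a rise of 2.55 (SE 0.28, limma adjusted p = 0.000596). At the level of probes 5 of 7 were called, beside 4.42% of the 23554 probes tested. The groups of 4 of 5 members did not overlap in this comparison, as for 17% of all genes.

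All 4 calls of the Keap1 line were kept when any 1 of its 6 arrays was left out. None of the 4 was kept with slide as a block, although the values changed little (Gsta1 3.46, adjusted p = 0.11; Gsta2 3.66, 0.114; Gsta4 1.40, 0.143; Gstp1 1.88, 0.0676), and the fainter Gstp1 probe alone passed there. Within slide 7, with 1 array of each group and no test, Gsta1 differed by 2.74, Gsta2 by 2.86, Gsta4 by 0.86 and Gstp1 by 1.97, in the same direction as over all arrays. Within the scan date that held 1 KD array and 2 controls, Gsta1 differed by 3.33, Gsta2 by 3.64, Gsta4 by 1.39 and Gstp1 by 1.76. With slide as a random block all 4 were kept (limma adjusted p = 0.00225 for Gsta1, 0.00225 for Gsta2, 0.00805 for Gsta4 and 0.00185 for Gstp1). The correlation within slides fitted there was -0.016 across genes. With scan date as a block Gsta4 was not called (1.57, limma adjusted p = 0.0504), while the other 3 genes were. In the fit of the 6 arrays of the line alone, Gsta1 and Gsta2 were called and Gsta4 (adjusted p = 0.114) and Gstp1 (adjusted p = 0.0536) were not.

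**Figure D2:**
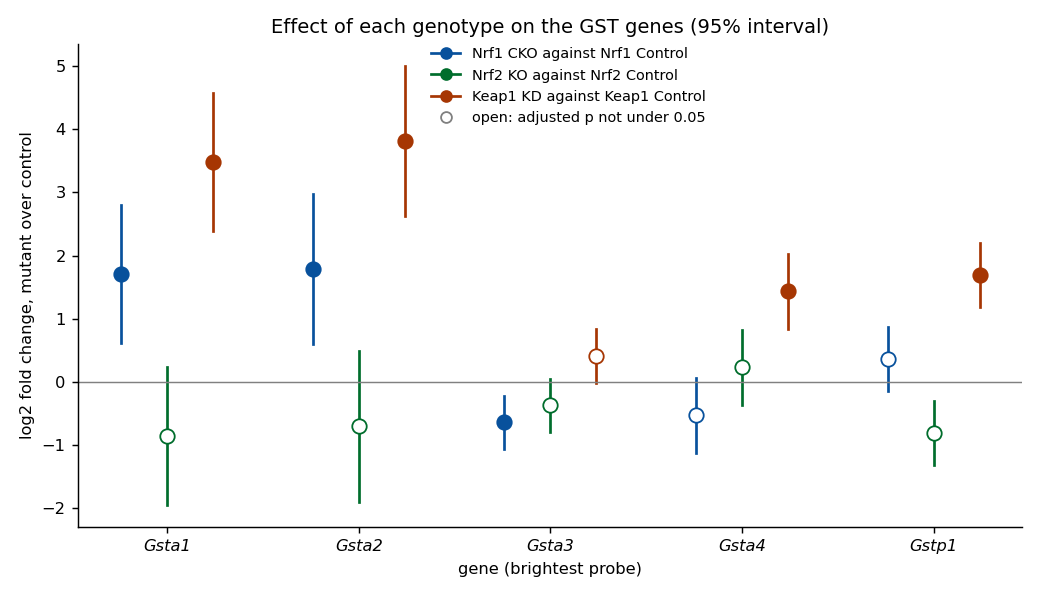
Log2 fold change of each gene's brightest probe, mutant over its own control (points), with the 95% interval from limma (lines); filled points have an adjusted p under 0.05 over all 17721 genes. In Keap1 KD all genes but Gsta3 lie well above 0, in Nrf1 CKO Gsta1 and Gsta2 lie above and Gsta3 below 0, and in Nrf2 KO all points are open.

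In Nrf1 CKO livers the alpha class moved in both directions. Gsta1 rose 3.26-fold and Gsta2 3.44-fold, Gsta3 fell by 0.64 on the log2 scale (1.56-fold), whereas Gsta4 and Gstp1 did not pass the test. These 3 calls among 5 members compare with 18.9% of all genes tested (7.99% higher and 10.9% lower). At the level of probes 3 of 7 were called, beside 17.9%, and the groups of 4 of 5 members did not overlap, as for 43.4% of all genes. The median log2 fold change of the members was 0.37, beside -0.09 over all genes.

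Gsta1 stood at 3.48, 4.14 and 3.38 on Nrf1 Control arrays 1 to 3 and at 4.10, 6.03 and 5.98 on the CKO arrays. CKO array 1 lay inside the control range and the other 2 CKO arrays lay above it. The difference was 1.70, or 3.26-fold (SE 0.51, 95% interval 0.61 to 2.80, limma adjusted p = 0.0328). Gsta2 stood at 1.83, 2.48 and 1.88 in control and at 2.66, 4.48 and 4.41 in CKO livers. Here CKO array 1 was again the lowest but lay above all controls, and the difference was 1.78, or 3.44-fold (SE 0.56, 95% interval 0.59 to 2.98, limma adjusted p = 0.038). Leaving out CKO array 1 gave 2.34 for Gsta1 (adjusted p = 0.00301) and 2.38 for Gsta2 (adjusted p = 0.00682).

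Gsta3 stood at 9.34, 9.16 and 8.87 on the brighter probe in Nrf1 Control and at 8.66, 8.43 and 8.35 in CKO livers. The CKO arrays all lay below the control arrays, and the gene fell by 0.64 on the log2 scale (SE 0.20, 95% interval -1.07 to -0.22, limma adjusted p = 0.037). The other Gsta3 probe stood at 8.18, 7.88 and 7.99 in control and at 7.59, 7.46 and 7.31 in CKO livers, a difference of -0.57 that did not pass (SE 0.22, limma adjusted p = 0.0871). With quantile normalization the brighter probe gave -0.13 and after normexp background correction -0.20, so that the size and the call of this difference depended on the scaling. Gsta4 stood at 2.07, 2.14 and 1.96 in control and at 1.44, 1.70 and 1.44 in CKO livers. Its groups did not overlap, but the difference of -0.53 did not pass the test (SE 0.28, 95% interval -1.12 to 0.06, limma adjusted p = 0.19).

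Gstp1 stood at 7.99, 8.27 and 8.27 on Nrf1 Control arrays and at 8.28, 8.68 and 8.66 on CKO arrays, a difference of 0.37 that did not pass (SE 0.24, 95% interval -0.14 to 0.87, limma adjusted p = 0.294). The other Gstp1 probe stood at 5.01, 5.37 and 5.54 in control and at 5.60, 6.23 and 6.19 in CKO livers, a difference of 0.70 (SE 0.28, limma adjusted p = 0.0905). On neither probe did the groups overlap. Scaling decided the call of the brighter probe, which reached 0.84 with quantile normalization (adjusted p = 0.0275) and 0.87 after normexp (adjusted p = 0.0152).

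The calls of the Nrf1 line rested on single arrays. Without Nrf1 Control 1 none of the 3 was kept (Gsta1 1.61, adjusted p = 0.109; Gsta2 1.67, 0.124; Gsta3 -0.53, 0.151). The same held without CKO 2 (Gsta1 1.37, 0.143; Gsta2 1.47, 0.153; Gsta3 -0.62, 0.116) and without CKO 3 (Gsta1 1.40, 0.15; Gsta2 1.502, 0.16; Gsta3 -0.58, 0.144). Without Control 2 Gsta1 alone was called (1.94, 0.0419, against 0.0535 for Gsta2 and 0.0886 for Gsta3), and without Control 3 Gsta3 alone (-0.77, 0.0283, against 0.0803 for Gsta1 and 0.0829 for Gsta2). Within slide 2 the 3 CKO arrays differed from Control 3 by 1.99 for Gsta1, 1.97 for Gsta2, -0.39 for Gsta3, -0.44 for Gsta4 and 0.28 for Gstp1, and no call was kept with slide as a block. With slide as a random block all 3 calls were kept (limma adjusted p = 0.0313 for Gsta1, 0.0362 for Gsta2 and 0.0346 for Gsta3). Over 17 other settings the adjusted p of Gsta1 ran from 0.00301 to 0.281, that of Gsta2 from 0.00682 to 0.317 and that of Gsta3 from 0.0263 to 0.602.

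Markers of several cell types differed between Nrf1 CKO and control livers, and in whole tissue fewer cells of a type and less RNA per cell cannot be told apart. Over all genes tested, 7.99% were called higher and 10.9% lower in this comparison. Of 13 hepatocyte markers tested, 7 were lower and 0 higher, and their summed linear level was 3070 to 4280 on CKO and 5070 to 5820 on control arrays. Of 12 stellate cell markers 11 were higher (summed level 135 to 191 against 87.8 to 114), and 5 of 12 female-biased liver genes were lower (800 to 959 against 1380 to 1800). Of the 10 Kupffer cell and macrophage markers above background on all 18 arrays, 3 were higher. Gpnmb and Mmp12, which were above background on 3 of 3 CKO and 0 of 3 control arrays of this line, were tested only because of the CKO arrays, and with both the count was 5 of 12 (summed level 226 to 460 against 125 to 236). Among the markers of other cells that were above background on all arrays, 1 of 7 cholangiocyte genes was higher, 0 of 7 lymphocyte and 0 of 3 pancreas genes were called (limma; 1 and 0 higher at an unadjusted p under 0.05), 1 of 10 endothelial genes was lower, and of 6 male-biased liver genes 1 was lower. Of the markers in these lists above background on fewer arrays, 3 were called higher (limma). Cd8a of lymphocytes (1.16, adjusted p = 0.0444) and Cela1 of the pancreas (1.22, 0.0287) were above background on 3 of 3 CKO and 1 of 3 control arrays. The male-biased Cyp4a12a (3.50, 0.0157) was above background on 3 of 3 arrays of both groups. The defining markers Cd79a of B cells and Cpa1 of the pancreas were above background on 0 arrays. The count of lower hepatocyte markers was 3 without Nrf1 Control 1, 4 without Control 2, 3 without CKO 2 and 1 without CKO 3, and 10 without CKO 1. That of lower female-biased genes was 3 without Nrf1 Control 1, 3 without CKO 2 and 2 without CKO 3, and that of higher macrophage markers, of 12, was 3 without Control 1, Control 3, CKO 2 or CKO 3. With slide as a block the hepatocyte, stellate and female-biased counts were 0 and the macrophage count was 3. Their part in the Gsta and Gstp values was not tested. In Keap1 KD and in Nrf2 KO livers no hepatocyte marker and no female-biased gene was called. At an unadjusted p under 0.05 the counts were 2 hepatocyte markers (1 higher, 1 lower) and 1 female-biased gene in Keap1 KD, and 0 and 4 in Nrf2 KO. In Keap1 KD 1 macrophage marker was higher and 1 stellate marker lower, but the former count moved in 8 and the latter in 12 of 17 other settings. The macrophage count was 0 without Keap1 Control 1 or KD 3, and the stellate count was 0 without Keap1 Control 1, Control 3, KD 1 or KD 3. In Nrf2 KO none of these lists held a call at the adjusted threshold (limma), and 3 of 6 male-biased genes above background on all arrays were lower at an unadjusted p under 0.05.

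**Figure D3:**
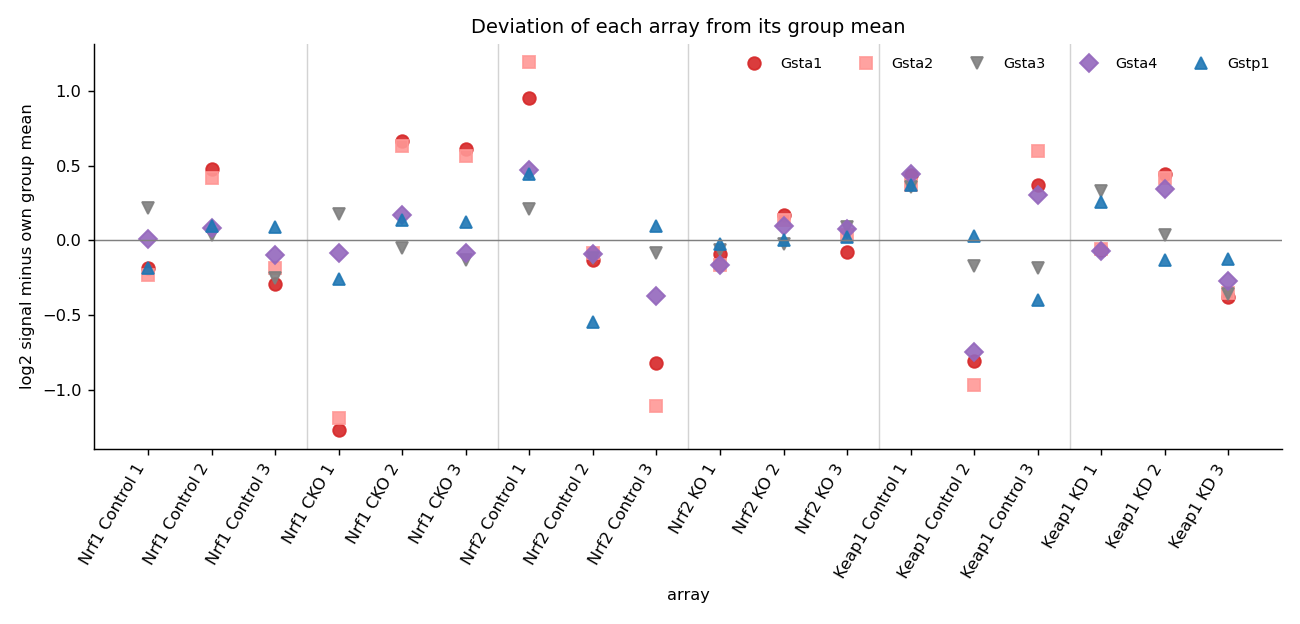
Deviation of each array from its own group's mean (log2) for the brightest probe of the 5 genes, with arrays on the x axis in groups of 3. Gsta1 and Gsta2 overlie each other on nearly every array, Gsta4 lies on the same side as both on Keap1 Control 2 and Nrf2 Control 1, and Gstp1 does not follow them on Keap1 Control 2.

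In Nrf2 KO livers no member passed the test (0 of 5 genes, beside 0.0621% of all genes, 0.00564% higher and 0.0564% lower; 0 of 7 probes, beside 0.0807% of all probes), and at an unadjusted p under 0.05 there was 1, Gstp1, lower. Gstp1 stood at 8.57, 7.58 and 8.23 on Nrf2 Control arrays 1 to 3 and at 7.29, 7.32 and 7.34 on KO arrays. The KO arrays lay within a narrow band below every control array and below every other array of the series. The difference was -0.81 (SE 0.24, 95% interval -1.32 to -0.30, unadjusted p = 0.00383, limma adjusted p = 0.311), and it was -0.32 to -1.08 over 17 other settings. The other Gstp1 probe stood at 6.09, 4.98 and 5.60 in control and at 4.69, 4.73 and 4.87 in KO livers, a difference of -0.79 (SE 0.28, limma adjusted p = 0.412).

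Among the alpha class, Gsta1 stood at 5.15, 4.07 and 3.38 on Nrf2 Control arrays and at 3.25, 3.52 and 3.27 on KO arrays. The controls spread over more than the difference between the groups, which was -0.85 (SE 0.51, 95% interval -1.95 to 0.24, limma adjusted p = 0.68). Gsta2 stood at 3.69, 2.41 and 1.39 in control and at 1.62, 1.93 and 1.82 in KO livers, a difference of -0.70 (SE 0.56, 95% interval -1.89 to 0.49, limma adjusted p = 0.786). Gsta3 stood at 9.26, 8.93 and 8.96 in control and at 8.62, 8.65 and 8.76 in KO livers, without overlap, and the difference was -0.37 (SE 0.20, 95% interval -0.80 to 0.05, limma adjusted p = 0.63). Gsta4 stood at 2.28, 1.72 and 1.44 in control and at 1.87, 2.14 and 2.12 in KO livers, with a difference of 0.23 (SE 0.28, 95% interval -0.36 to 0.82, limma adjusted p = 0.873). The groups of 2 of 5 members, Gsta3 and Gstp1, did not overlap, as for 20.8% of all genes. Nqo1, the quinone reductase often used as a readout of NRF2, fell by 1.47 in the same livers (SE 0.25, limma adjusted p = 0.0384), and this call was lost in 12 of 17 other settings.

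The difference between 2 mutant effects was tested directly in the same limma fit, and the pairs share no array. The Keap1 KD effect exceeded the Nrf2 KO effect by 4.34 for Gsta1 (SE 0.73, adjusted p = 0.00704), by 4.51 for Gsta2 (SE 0.79, adjusted p = 0.00918) and by 2.51 for Gstp1 (SE 0.34, adjusted p = 0.00143). These 3 of 5 members compare with 3.09% of all genes, 1% with a difference in this direction. With slide as a block none of them was kept (0.265, 0.286 and 0.134), and with scan date as a block Gstp1 alone was kept. For Gsta4 the 2 effects differed by 1.204 (95% interval 0.37 to 2.04, adjusted p = 0.116) and for Gsta3 by 0.78 (95% interval 0.18 to 1.38, adjusted p = 0.155), and neither passed.

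The Nrf1 CKO effect lay below the Keap1 KD effect by 1.96 for Gsta4 (SE 0.39, limma adjusted p = 0.0151), by 1.33 for Gstp1 (SE 0.34, adjusted p = 0.0324) and by 1.05 for Gsta3 (SE 0.28, adjusted p = 0.0392), 3 of 5 members beside 6.92% of all genes, 3.36% in this direction. Gsta1 and Gsta2, the genes that passed in both lines, did not pass for a difference in effect (-1.78, 95% interval -3.33 to -0.24, adjusted p = 0.129, and -2.03, 95% interval -3.71 to -0.34, adjusted p = 0.116). The call of Gsta4 was kept in all but 1 of 23 other settings, slide as a block (-1.83, adjusted p = 0.261). That of Gstp1 was lost in 13 settings and that of Gsta3 in 14. For Gstp1 these included leaving out Nrf1 Control 1 (0.0618), Nrf1 Control 2 (0.0604), Nrf1 CKO 2 (0.0618), Nrf1 CKO 3 (0.0681), Keap1 Control 2 (0.0577), Keap1 Control 3 (0.0621) or Keap1 KD 1 (0.0687). For Gsta3 they included the same arrays (0.105, 0.0696, 0.0903, 0.104, 0.0813, 0.0743 and 0.0813) and Keap1 KD 2 (0.0625).

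Between Nrf1 CKO and Nrf2 KO no difference of effect passed (0 of 5, beside 5.58% of all genes), while 3 members did at an unadjusted p under 0.05, all with the higher value in Nrf1 CKO. The share of all genes at that threshold was not counted. By limma p, Gsta1 ranked 1050, Gsta2 1594 and Gstp1 1075 among the 17721 genes, and Gsta4, at an unadjusted p of 0.0723, ranked 5068. Gsta1 differed by 2.56 (95% interval 1.01 to 4.10, limma adjusted p = 0.052), Gsta2 by 2.49 (95% interval 0.80 to 4.17, adjusted p = 0.0736) and Gstp1 by 1.18 (95% interval 0.46 to 1.89, adjusted p = 0.0528). All 3 passed when Nrf1 CKO 1 was left out (3.19, 0.00614; 3.08, 0.0157; 1.31, 0.0289). Gsta1 and Gsta2 passed without Nrf2 Control 3 (2.97, 0.0485, and 3.04, 0.0486), and Gstp1 without Nrf2 Control 2 (1.45, 0.0208). The fainter Gstp1 probe passed over all arrays, at 1.495 (SE 0.40, adjusted p = 0.0418), beside 5.19% of all probes.

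**Figure D4:**
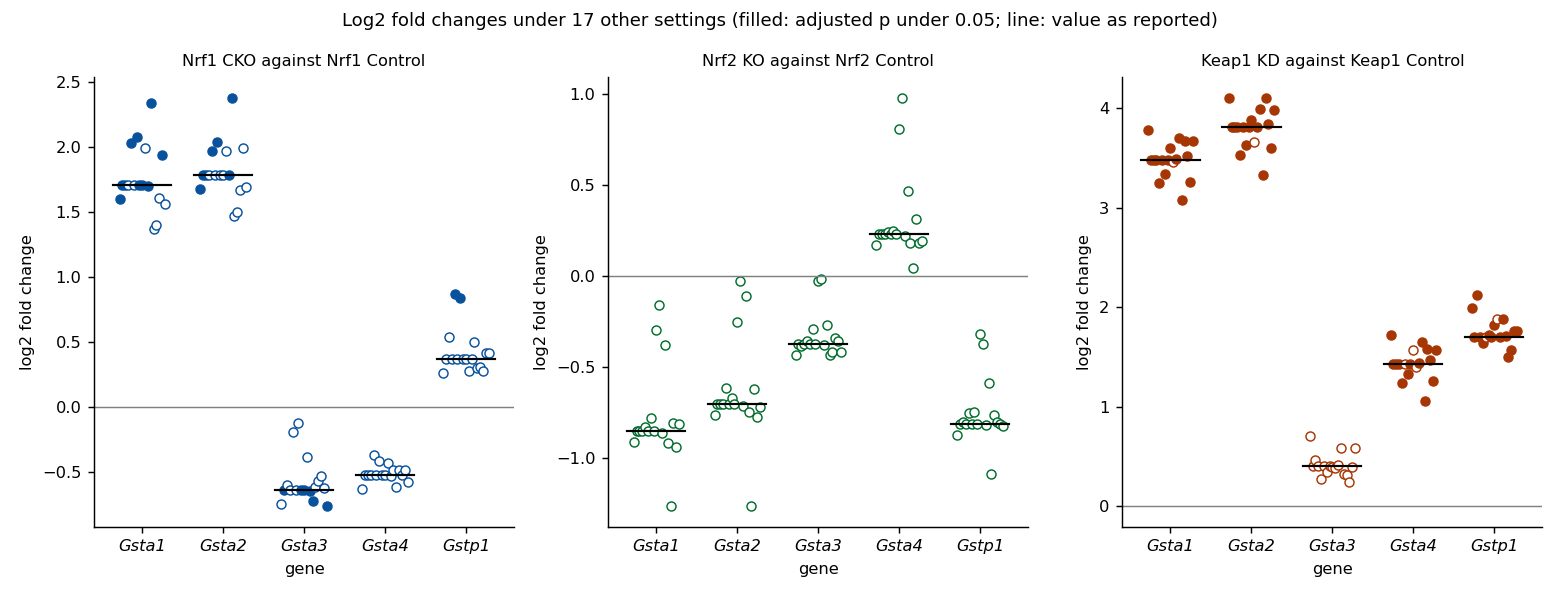
Log2 fold changes of the 5 genes under 17 other settings in each of the 3 comparisons (points, filled where the adjusted p is under 0.05), beside the reported value (line). Every point keeps its side of 0; in Nrf1 CKO the points of Gsta1, Gsta2 and Gsta3 are a mix of filled and open, and in Keap1 KD nearly all points of Gsta1, Gsta2, Gsta4 and Gstp1 are filled.

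Ordered by mean level, Keap1 KD stood highest of the 6 groups for every probe. For Gsta1 it stood at 7.25 ± 0.41 (SD, n = 3), followed by Nrf1 CKO at 5.37 ± 1.10, Nrf2 Control at 4.20 ± 0.89, Keap1 Control at 3.76 ± 0.70, Nrf1 Control at 3.67 ± 0.41 and Nrf2 KO at 3.35 ± 0.15. Keap1 KD was separate from its neighbour, and every later neighbour in this order overlapped the one before it. Gsta2 had the same order, with 5.88 ± 0.39 in Keap1 KD and 1.79 ± 0.16 in Nrf2 KO. For Gstp1 the order ran from Keap1 KD (9.63 ± 0.22) through Nrf1 CKO (8.54 ± 0.22), Nrf1 Control (8.18 ± 0.16), Nrf2 Control (8.13 ± 0.50) and Keap1 Control (7.93 ± 0.38) to Nrf2 KO (7.32 ± 0.02). The 3 control groups overlapped in Gstp1, and Keap1 KD, Nrf1 CKO and Nrf2 KO were each separate from their neighbours in this order. Nrf1 CKO (8.28 to 8.68) lay only just above Nrf1 Control (up to 8.27). It overlapped Nrf2 Control (up to 8.57) and Keap1 Control (up to 8.30), which were not its neighbours. On the fainter probe Nrf1 CKO overlapped its next group, Nrf2 Control.

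For Gsta3 the highest group, Keap1 KD (9.22 ± 0.34), and the lowest, Nrf1 CKO (8.48 ± 0.16), lay close on the brighter probe, and every neighbour in the order overlapped. Gsta4 ran from 3.34 ± 0.31 in Keap1 KD to 1.53 ± 0.15 in Nrf1 CKO, the 4 other groups lay between 1.81 and 2.06, and Keap1 KD alone was separate from its neighbour. Nrf1 CKO was thus second highest for Gsta1, Gsta2 and Gstp1 and lowest for Gsta3 and Gsta4.

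Replicates of a group also differed from each other in the same members. On Keap1 Control 2, Gsta1, Gsta2 and Gsta4 lay below their group mean by 0.81, 0.97 and 0.75 on the log2 scale, while Gstp1 lay at 0.03 above it. On Nrf2 Control 1 the same 3 genes lay above it by 0.95, 1.19 and 0.47 and on Nrf2 Control 3 below it by 0.82, 1.11 and 0.38, whereas Gstp1 was 0.45 above on the former and 0.10 above on the latter. On Nrf1 CKO 1, Gsta1 and Gsta2 lay 1.27 and 1.19 below their mean, Gstp1 0.26 below, and Gsta3 0.18 above. These spreads enter the standard errors of Gsta1 and Gsta2, 0.51 and 0.56 beside a median of 0.24 over all genes.

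The 2 probes of Gstp1 did not keep a fixed distance from each other. On each array the distance between them needs no scaling, and this comparison was added after seeing the data. The fainter minus the brighter probe was -2.63, -2.55 and -2.67 on the Keap1 Control arrays and -1.85, -1.98 and -1.46 on the KD arrays. The distance narrowed by 0.85 on the log2 scale, without overlap (2-sided exact permutation p = 0.1, the smallest that 3 arrays against 3 can give; 0.3 adjusted over 6 such comparisons). In the Nrf1 line it narrowed by 0.34 (exact permutation p = 0.1, adjusted 0.3) and in the Nrf2 line by 0.02 (exact permutation p = 0.5, adjusted 0.72). For Gsta3 the distance moved by 0.12 in the Keap1 line, 0.08 in the Nrf1 line and -0.02 in the Nrf2 line (exact permutation p = 0.2, 0.6 and 0.8). Which transcripts each Gstp1 probe reads, Gstp2 included, cannot be told apart here.

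**Figure D5:**
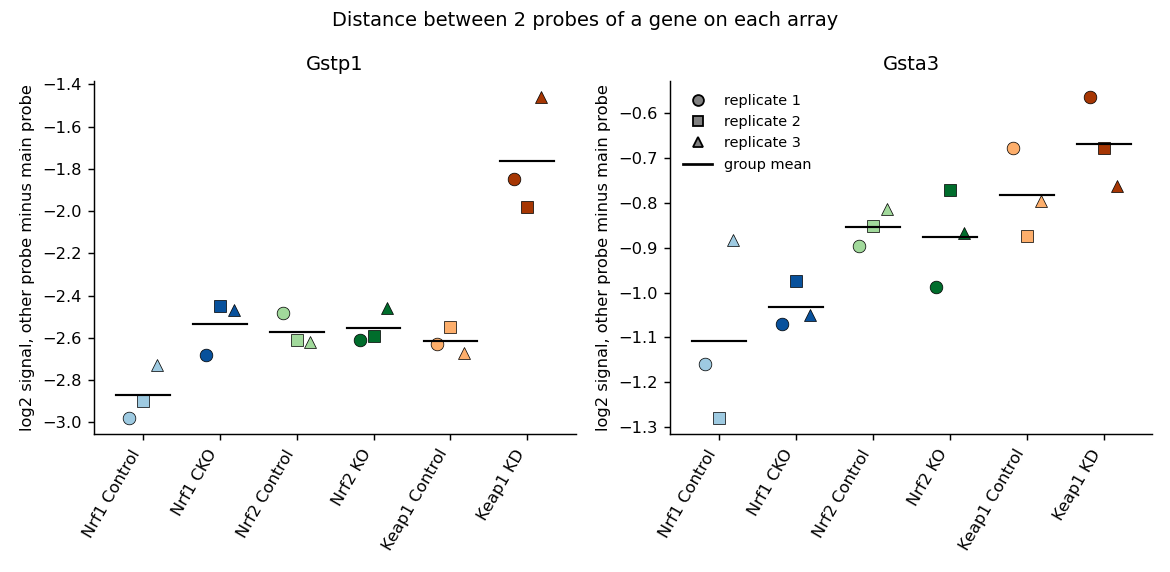
Log2 signal of the fainter probe minus the brighter probe of Gstp1 (left) and of Gsta3 (right) on each array, by group, with the group mean as a line. For Gstp1 the 3 Keap1 KD arrays, at -1.98 to -1.46, lie above all other arrays; for Gsta3 mutant and control overlap in each line.

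Among 12829 other named genes, the level over the 18 arrays was most like that of Gsta1 for Srxn1 (sulfiredoxin; Pearson r = 0.925) and Abcc4 (an efflux pump; 0.913), and the same 2 genes came first for Gsta2 (0.913 and 0.92). For Gstp1 they were Gstm3, a mu-class transferase (0.984), and the ferritin light chain Ftl1 (0.936). For Gsta4 they were Cyp2a22 (0.883) and Usp50 (0.877), and for Gsta3 Acyp1 (0.909) and Rab5if (0.891). The coefficients describe 18 arrays that share 6 groups, and the 3 Keap1 KD arrays stand apart in all members but Gsta3.

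Part of the rest of the transferase family rose with the members in Keap1 KD, where 0.948% of all genes were called higher and 4.58% lower. Of 17 other glutathione S-transferases tested, 5 rose and 0 fell in Keap1 KD (9 higher and 1 lower at an unadjusted p under 0.05), led by the mu-class genes Gstm4 (2.40), Gstm3 (2.13) and Gstm2 (1.29; lost in 10 of 17 other settings), with a list median of 0.44. The count was 3 without Keap1 Control 2, without Keap1 Control 3 or without Keap1 KD 2, 1 with slide as a block and 0 when the 6 Keap1 arrays were fitted alone (adjusted p = 0.0536 for Gstm4, 0.0714 for Gstm3 and 0.152 for Gstm2). In Nrf1 CKO 1 rose, Gstm2 (1.36), beside 7.99% of all genes, and 3 fell, beside 10.9%. Among the 3 were the theta-class Gstt3 (-1.41) and Gsto1 of the omega class (-1.18). The list median was -0.29, and the counts were 1 and 5 at an unadjusted p under 0.05. Without Nrf1 Control 1, without CKO 2 or without CKO 3 the count of lower genes was 1, that of higher genes was 2 without Control 2 and 0 without CKO 2 or CKO 3, and with slide as a block both were 0. In Nrf2 KO none passed (limma; 2 higher and 5 lower at an unadjusted p under 0.05).

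Of 24 genes that make, use or export glutathione, 6 rose and 0 fell in Keap1 KD, beside 0.948% and 4.58% of all genes. Among the 6 were the glutathione peroxidase Gpx2 (4.16) and the pumps Abcc4 (2.92) and Abcc3 (1.53). At an unadjusted p under 0.05 the counts were 8 and 1, without Keap1 Control 3 there was 1 call lower, and with slide as a block none passed. In Nrf1 CKO 1 rose, Ggct (0.89), beside 7.99% of all genes, and 5 fell, beside 10.9%. The 5 were led by Chac1, which degrades glutathione (-1.92), and Oplah, the oxoprolinase (-0.91). Among the 23 genes above background on all arrays, 2 were higher and 9 lower at an unadjusted p under 0.05. In this comparison Gsta4, at an unadjusted limma p of 0.0756, ranked 7054 of 17721 genes, so these counts may lie near the share of all genes. The count of higher genes was 3 without CKO 1 and 0 without Nrf1 Control 1, Control 2, CKO 2 or CKO 3, and that of lower genes was 2 without Nrf1 Control 1, 3 without Control 2, 1 without CKO 2, 2 without CKO 3 and 0 with slide as a block. In Nrf2 KO none passed (limma; 0 higher and 5 lower of these 23 at an unadjusted p under 0.05; 1 lower without Nrf2 KO 3).

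Of 18 reference targets of NRF2, 12 rose in Keap1 KD and 0 fell, beside 0.948% and 4.58% of all genes. At an unadjusted p under 0.05 the counts were 13 and 0. The rises were led by the carbonyl reductase Cbr3 (6.39), Nqo1 (3.33) and Srxn1 (2.06), and with slide as a block 2 passed. In Nrf1 CKO 6 rose and 0 fell, beside 7.99% and 10.9% of all genes (8 and 1 targets at an unadjusted p under 0.05). The rises were led by Cbr3 (1.61), the carboxylesterase Ces2e (1.48) and the epoxide hydrolase Ephx1 (1.47), whereas Nqo1 did not pass (0.27, limma adjusted p = 0.456). The count in Nrf1 CKO was 3 without Nrf1 Control 1, 3 without CKO 2, 2 without CKO 3, 0 with slide as a block and 10 after normexp. Keap1 stood at 3.62 ± 0.18 in Nrf1 Control and at 2.91 ± 0.09 in Nrf1 CKO, without overlap, as for 43.4% of all genes, and its part in these counts was not tested. Nfe2l2 itself stood at 3.60 ± 0.09 in Nrf1 Control and at 4.28 ± 0.20 in Nrf1 CKO. The Nfe2l2 groups did not overlap either (3.52 to 3.70 against 4.06 to 4.45). The difference of 0.68 did not pass (limma adjusted p = 0.331), and it passed in 2 of 17 other settings. These were normexp (limma adjusted p = 0.00472) and the fit of the 6 arrays of the line alone (0.0396). The main fit shares its spread over all groups, among them Nrf2 KO, where Nfe2l2 had an SD of 1.5. In Nrf2 KO 1 target fell, Nqo1, and 0 rose (7 lower and 0 higher at an unadjusted p under 0.05).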

How the data were processed

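Liver RNA (500 ng) of 18 samples was hybridised to single-colour Agilent arrays and read with Feature Extraction 10.7.3.1, per the labels and the file headers. The deposited processed signal intensities were background-subtracted and detrended, with low values raised to a surrogate, and not normalized between arrays, per the file headers. The deposited series table held equal intensities at 810324 of 810324 entries. Flags for background, saturation and outliers and raw median intensities were deposited alongside. The headers name build mm9, so no gene coordinates are given, and promoters carry their own build.

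Control and outlier spots (1639 of 45018 spots were controls) were left out, log2 signals of a probe were averaged, and log2 of the array's 75th percentile was subtracted. Symbols came from RefSeq (64.9% of probes). A probe was tested where all 3 arrays of at least 1 group were well above background (at least 50% of its spots) and 70% of all arrays gave a value, the brightest probe standing for a gene (17721 genes, 12874 with a symbol; 23554 probes in the probe-level fit). limma 3.58.1 (R 4.3.3) was fitted to 6 group means (12 residual and 3.07 prior degrees of freedom), with Benjamini-Hochberg adjustment over all genes or probes and calls at an adjusted p under 0.05. The code was tested on simulated data. Gene lists are described by counts, medians and, for marker lists, the summed linear level, with no list test. Counts limited to genes above background on all arrays were added after seeing the data. Counts at an unadjusted p under 0.05 stand without the share of all genes at that threshold, which was not counted. They may lie near that share and are not read as results about a list. By limma p, Gsta4 in Nrf1 CKO (0.0756) ranked 7054 of 17721 genes. Gsta3 ranked 2314 in Nrf2 KO (0.0823) and 3172 in Keap1 KD (0.058).

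The members and lists were chosen with earlier results of these data known. Genes outside the members were named by rule: the targeted genes, Nqo1, up to 3 called genes per list and comparison with the largest change, and the 2 nearest patterns of each member. Alternatives were quantile and median scaling, normexp (offset 50), the series table, no background filter, the mean of probes, fits of the compared lines, replicate, slide and scan date as blocks, slide as a random block, and each array left out. Same-numbered replicates did not all deviate together (correlations -0.359 to 0.147), and the main fit does not pair samples by number. Whether the samples were paired cannot be told from these correlations.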

Additional observations from a re-analysis of the deposited data

Results flagged for a closer look

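Each of the differences below is between the effects of 2 genotypes on the same gene and passed limma's test of the difference itself, adjusted over all 17721 genes. The Keap1 KD effect minus the Nrf2 KO effect was 4.34 for Gsta1 (adjusted p = 0.00704), 4.51 for Gsta2 (0.00918) and 2.51 for Gstp1 (0.00143). The Nrf1 CKO effect minus the Keap1 KD effect was -1.05 for Gsta3 (adjusted p = 0.0392), -1.96 for Gsta4 (0.0151) and -1.33 for Gstp1 (0.0324). All 6 were lost with slide as a block and kept with slide as a random block. Those of Gsta3 and Gstp1 between Nrf1 CKO and Keap1 KD were also lost with quantile normalization (-0.47 and -0.88).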

How the results depend on the processing

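Under all alternatives, 602 of the values of the members kept their direction and their side of the threshold, 68 lost a call, 22 gained one and 4 changed sign, none of them called. The series table, equal to the processed signal at every entry, is counted among the other settings throughout, and its values could not differ from the main fit. The sign changes were those of Gsta3 for the Nrf1 CKO effect minus the Nrf2 KO effect, 0.16 with quantile normalization and 0.16 after normexp, and of the fainter Gsta3 probe in Nrf2 KO, 0.14 with slide as a block and 0.11 with scan date. The causes were not tested.

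Of 5 genes and 7 probes, the number called in Nrf1 CKO was 3 and 3, and fell to 0 and 0 with no background filter, with the 6 arrays of the line alone and with slide as a block; leaving out single arrays gave 0 to 3 genes and 0 to 4 probes. In Keap1 KD it was 4 and 5, against 2 and 3 with the arrays of the line alone 0 and 1 with slide as a block, 3 and 4 with scan date blocked, and 4 and 5 with any array left out. For the Keap1 KD effect minus the Nrf2 KO effect, 3 genes were called, 0 with slide as a block and 1 with scan date. For the Nrf1 CKO effect minus the Nrf2 KO effect, 0 were called, 2 with quantile normalization, after normexp or with slide as a random block, 1 with the mean of probes or with the compared lines alone, and 0 to 3 without single arrays. For the Nrf1 CKO effect minus the Keap1 KD effect, 3 were called, 5 with median scaling, 0 with slide as a block, 1 with quantile normalization, after normexp, with no background filter, with the compared lines alone or with scan date as a block, and 1 to 3 without single arrays. In fits without 1 array the group left with 2 is assumed to vary like the others.

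With the replicate number as a block, 2, 0 and 4 members were called in Nrf1 CKO, Nrf2 KO and Keap1 KD (4 of 7 probes in Keap1 KD), the one gene call lost being Gsta2 in Nrf1 CKO (adjusted p = 0.0578), and the genes called in all moved from 3348 to 2794, from 11 to 5 and from 979 to 636. By deviations, 3, 2 and 2 of 6 samples correlated best with their own number. Over all settings those genes numbered 65 to 4160 in Nrf1 CKO, 5 to 22 in Nrf2 KO and 52 to 1048 in Keap1 KD. Median scaling moved the median of all genes by 0.29 in Keap1 KD and by -0.11 in Nrf1 CKO. The share of higher genes among those called in Keap1 KD was 17.2%, against 48.8% with median scaling and 27.4% with quantile normalization, and in Nrf1 CKO 42.3% against 35.3% and 55.1%. The number of arrays, 3 in a group, limits what can pass, since the median standard error was 0.24.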
